A study of Mus musculus with 17 samples.

Results

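Matrix metalloproteinases (MMP), ADAMTS proteases and the TIMP inhibitors were compared across 12 RNA-seq libraries of a mouse study of ependymoma and YAP fusion proteins. Members were all genes whose symbol in the deposited tables was Mmp, Adamts or Timp followed by a number, with an optional a or b for the MMP genes. The rule used the symbols and no measured value, and it gave 46 of 52850 symbols, of which 23 were MMP, 19 ADAMTS and 4 TIMP genes. A filter of a CPM value (counts scaled to a common library size) of at least 1 in at least 2 libraries kept 38 of the 46 members, namely 16 MMP, 18 ADAMTS and 4 TIMP genes, among 18329 genes tested. The 8 members below it were Adamts13, Mmp1a, Mmp1b, Mmp7, Mmp8, Mmp20, Mmp21 and Mmp27. A gene that passes the filter through its high group alone has to differ between groups, so counts over the members that passed are descriptions.

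The YAP-M group held 4 libraries of brain tumour tissue, raised by in utero electroporation (plasmid DNA is driven into the brain of an embryo by an electric pulse) of a construct named YAP-M. The YMdIDR group held 3 libraries labelled as overexpressing a construct named YAP-MΔIDR. Their labels name brain tumour tissue as the source and progenitors of the neural lineage grown from embryonic stem (ES) cells as the tissue, so the material of this group was not settled by the labels. Their macrophage and endothelial markers, given below, were closer to those of the YAP-M tumour tissue than to those of cultured progenitors. Neural progenitors grown from ES cells and overexpressing YAP gave the 2 NSC-YAP libraries. The SVZ group held 3 libraries labelled wild-type by treatment and brain tumour by tissue, and was the baseline of the other groups here. Age, strain and the promoter of each construct were not given in the labels used here, and nothing in them says that libraries of 1 group came from separate animals or cultures, so p-values measure the spread between these libraries, which may be technical. In bulk libraries, fewer cells of a type and less RNA per cell cannot be told apart.

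MMPs are zinc proteases that cut collagens, gelatin, elastin and other proteins of the extracellular matrix. Most are secreted as inactive precursors, and a membrane-type subgroup stays tethered to the cell surface, where it can activate other MMPs. ADAMTS proteases are secreted relatives with thrombospondin repeats, and several of them cut the large chondroitin sulphate proteoglycans aggrecan, brevican and versican, which fill the spaces between cells in brain. TIMPs bind the active site of MMPs and block them, and TIMP3 also blocks ADAMTS4 and ADAMTS5. TIMP2 also takes part in the activation of the MMP2 precursor by MMP14. Invasion, vessel remodelling and the turnover of the perineuronal matrix are processes these enzymes are known for in brain.

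Library totals lay between 20784130 and 25463303 counts, and a level of 3 counts in a library corresponded to 0.11 to 0.147 CPM. Counting intervals and this floor cover counting error only. Yap1 had 92.9, 105, 98.2 and 92.7 CPM in the YAP-M libraries, 184, 838 and 1274 CPM in the YMdIDR libraries, 241 and 238 CPM in the NSC-YAP libraries and 21.5, 25.3 and 27.9 CPM in the SVZ libraries. These reads may come from the constructs as well as from the endogenous gene, and the part of each was not determined here. Markers of macrophages, endothelial cells and pericytes were present in the YAP-M, YMdIDR and SVZ libraries. In the NSC-YAP libraries the macrophage markers other than Cd68, the endothelial markers Pecam1, Cdh5, Tek and Cldn5 and the pericyte and fibroblast markers Pdgfrb, Rgs5, Lum and Dcn stayed under 1 CPM. Reads were present there for Cd68 (39.3 and 39.8 CPM), Pdgfra (46.1 and 44.9 CPM), Flt1 (17.2 and 19.0 CPM), Kdr, Col1a1 and Acta2. The macrophage gene Ptprc had 54.5, 58.5, 38.5 and 64.4 CPM in the YAP-M libraries, 45.0, 58.2 and 48.0 CPM in the YMdIDR libraries, 0.0407 and 0 CPM in the NSC-YAP libraries and 3.22, 4.9 and 4.84 CPM in the SVZ libraries. The microglial gene P2ry12 stood in another order, with 37.1 to 64.7 CPM in YAP-M, 19.6 to 35.0 CPM in YMdIDR, 0 and 0.0408 CPM in NSC-YAP and 74.6 to 105.3 CPM in SVZ libraries. Summed markers of neural progenitors (Nes, Sox2, Pax6 and Vim) lay at 1665 to 2283 CPM in YAP-M, 2654 to 3808 CPM in YMdIDR, 2814 to 3014 CPM in NSC-YAP and 153.8 to 179.9 CPM in SVZ libraries. Vim made up most of that sum, and Sox2 alone was lower than SVZ in YAP-M and YMdIDR libraries, with 23.2 to 28.0 CPM in YAP-M, 5.27 to 14.3 CPM in YMdIDR, 499.6 and 476 CPM in NSC-YAP and 74.7 to 94.4 CPM in SVZ libraries. Summed neuronal markers lay at 178.6 to 506.8 CPM in YAP-M, 212.4 to 282.9 CPM in YMdIDR, 698.9 to 763 CPM in NSC-YAP and 3561 to 3686 CPM in SVZ libraries. Map2 made up 653.7 and 719.7 CPM of the NSC-YAP sums, while Snap25 had 2.32 and 1.79 CPM there, less than in every YAP-M and YMdIDR library.

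Of the 46 members, 10 lie side by side on chromosome 9 as a cluster of secreted MMP genes of 427 kb (mm10, chr9:7272514-7699585), which ends 232 kb before Yap1 (chr9:7931999-8004596). In the files' coordinates the order is Mmp13, Mmp12, Mmp1b, Mmp3, Mmp1a, Mmp10, Mmp8, Mmp27, Mmp20 and Mmp7. Promoters are shown here because the members of this cluster that were detected were high in the same groups. The letters TGANTCA, which AP-1 transcription factors recognise and which read the same on both strands, were searched in the 250 bases before each RefSeq start (GRCm38.p6). RefSeq promoters were matched for 32 of the 46 members, with 35 starts. The members without a match all lie outside the cluster. They were Mmp2, Mmp9, Mmp16, Mmp17, Mmp19, Adamts4, Adamts5, Adamts6, Adamts7, Adamts8, Adamts10, Adamts15, Adamts16 and Adamts19, and their promoters were not searched for any letters. The letters were present before 8 of the 35 starts (22.9%), against 6.75% of all 32851 RefSeq promoters of that length, and all 8 belonged to the chromosome 9 cluster, where Mmp8 and Mmp27 lacked them. These 8 precede neighbouring, related genes and do not count as independent promoters. No matched member outside the cluster had the letters, so the share describes the cluster and not the members at large. Mmp12 and Mmp7 each have another RefSeq start without the letters, and for Mmp12 that start is the one nearer to the gene's start in the files. The letters GGAATG, which TEAD factors recognise, were searched on both strands and were present for 2 members, Timp1 and Adamts13 (5.71% of member promoters, against 12.6% of all). The 100 bases before the start are given for 4 genes of the cluster with reads in the YAP-M and YMdIDR libraries and for 2 with few or none, with the TGANTCA match in capitals, on the plus strand, from RefSeq.
Mmp13: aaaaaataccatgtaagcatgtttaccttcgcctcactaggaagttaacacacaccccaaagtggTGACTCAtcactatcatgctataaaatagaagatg
Mmp12: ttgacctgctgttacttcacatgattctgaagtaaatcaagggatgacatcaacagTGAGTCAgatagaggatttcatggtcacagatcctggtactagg
Mmp3: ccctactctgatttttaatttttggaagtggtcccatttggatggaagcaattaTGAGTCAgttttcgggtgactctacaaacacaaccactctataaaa
Mmp10: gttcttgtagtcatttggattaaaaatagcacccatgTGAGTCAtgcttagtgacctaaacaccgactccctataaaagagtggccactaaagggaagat
Mmp1a: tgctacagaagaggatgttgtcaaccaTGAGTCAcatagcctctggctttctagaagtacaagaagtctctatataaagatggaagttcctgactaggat
Mmp7: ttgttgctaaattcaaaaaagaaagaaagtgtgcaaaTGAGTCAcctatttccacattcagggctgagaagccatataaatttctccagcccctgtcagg
In the order given, these windows lie at chr9:7272414-7272513, chr9:7347274-7347373, chr9:7445722-7445821, chr9:7502242-7502341, chr9:7464041-7464140 and chr9:7691990-7692089. The match begins 35 bases before the start of Mmp13, 44 before that of Mmp12, 46 before that of Mmp3, 63 before those of Mmp10 and Mmp7, and 73 before that of Mmp1a. The Mmp12 window precedes a RefSeq start 2993 bases from the gene's start in the files. A match is a description of the letters, and binding was not analysed here.

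Members together took 0.192% to 0.27% of all counts in the YAP-M libraries, 0.183% to 0.233% in the YMdIDR libraries, 0.118% and 0.119% in the NSC-YAP libraries and 0.0752% to 0.0872% in the SVZ libraries. Per kilobase of gene length, the scale on which genes can be set against each other, Timp2 was the most abundant member in every group, with mean levels of 123 CPM per kb in YAP-M, 111 in YMdIDR, 80.8 in NSC-YAP and 88.2 in SVZ libraries. Among the proteases the first place differed between groups. Adamts5 led in YAP-M and YMdIDR libraries with 64.8 and 58.0 CPM per kb, Mmp15 led in NSC-YAP libraries with 61.2, and Adamts4 led in SVZ libraries with 16.9, followed by Mmp17 with 14.5. In SVZ libraries the lowest Adamts4 value was 13.5 and the highest Mmp17 value 16.3 CPM per kb, so these neighbours in the order overlapped. Adamts5 led by its mean and not in every YMdIDR library. In YMdIDR replicate 1 Mmp2 stood above it, with 56.6 against 49.7 CPM per kb. Mmp14 and Mmp2 together formed most of the summed MMP level in YAP-M libraries (44.9% and 33%) and in YMdIDR libraries (41.2% and 29.1%). Mmp15 alone formed 85.3% of it in NSC-YAP libraries. Mmp17, Mmp15 and Mmp24, which encode membrane-type MMPs, formed 33.1%, 29.1% and 15.4% of it in SVZ libraries. Adamts5 formed 50.7% of the summed ADAMTS level in YAP-M libraries and 49.8% in YMdIDR libraries, Adamts7 led with 20.8% in NSC-YAP libraries, and Adamts4 formed 48.9% in SVZ libraries.

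**Figure D1:**
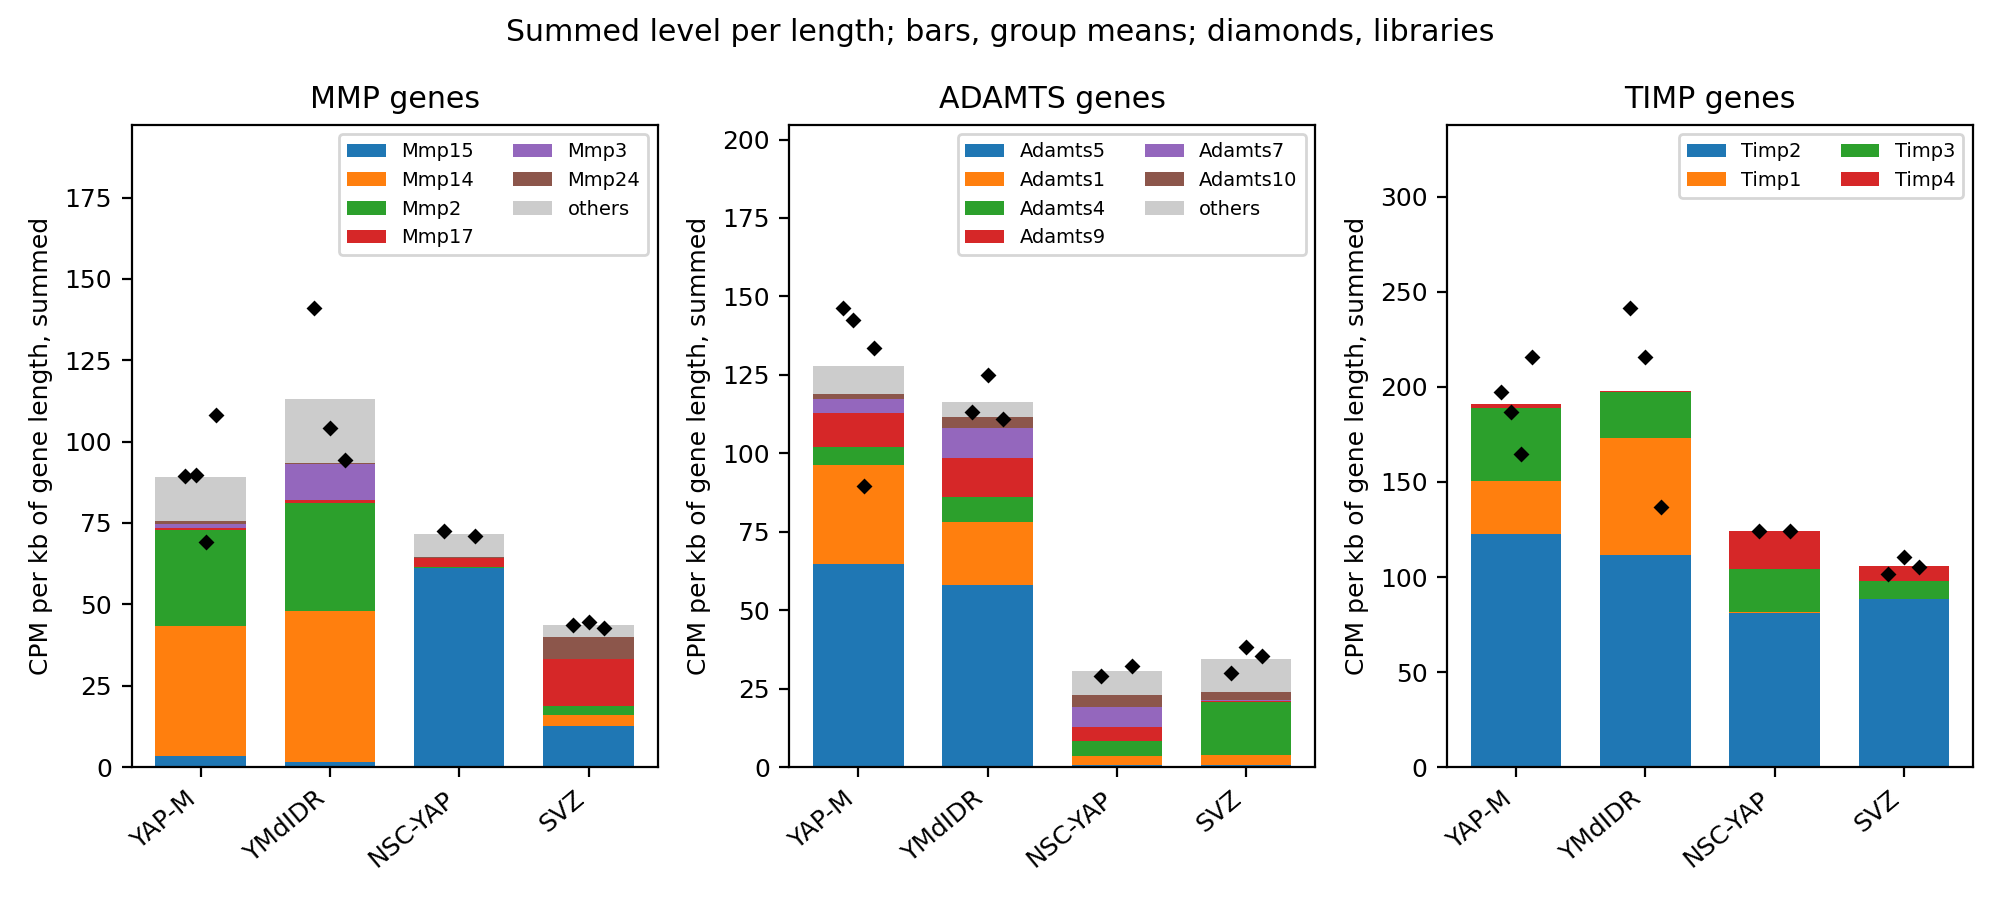
Summed level of the MMP (left), ADAMTS (middle) and TIMP genes (right) in CPM per kb of gene length. Bars are group means stacked by gene and diamonds are libraries. The leading colour of the MMP bar differs between the NSC-YAP group (Mmp15, 85.3%) and the YAP-M group (Mmp14, 44.9%).

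In YAP-M libraries against SVZ libraries, 18 of the 38 tested members were higher and 10 lower, a call here being an adjusted p under 0.05 with a log2 fold change no nearer to 0 than 1 or -1. Over all genes, 25.8% were called higher and 28.9% lower (54.7% in either direction), against 47.4% and 26.3% of the tested members. The median log2 fold change was 1.07 over the tested members and -0.04 over all genes. YMdIDR libraries against the same SVZ libraries had 20 members higher and 10 lower, beside 26.9% and 29.6% of all genes (56.5% together), with medians of 1.30 and -0.01. These comparisons share the SVZ libraries, so their values are set side by side and their likeness was not tested. Among the MMP genes 9 were higher and 3 lower of 16 in YAP-M libraries, and 11 and 3 in YMdIDR libraries. Among the ADAMTS genes 7 were higher and 6 lower of 18 in each of the comparisons.

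**Figure D2:**
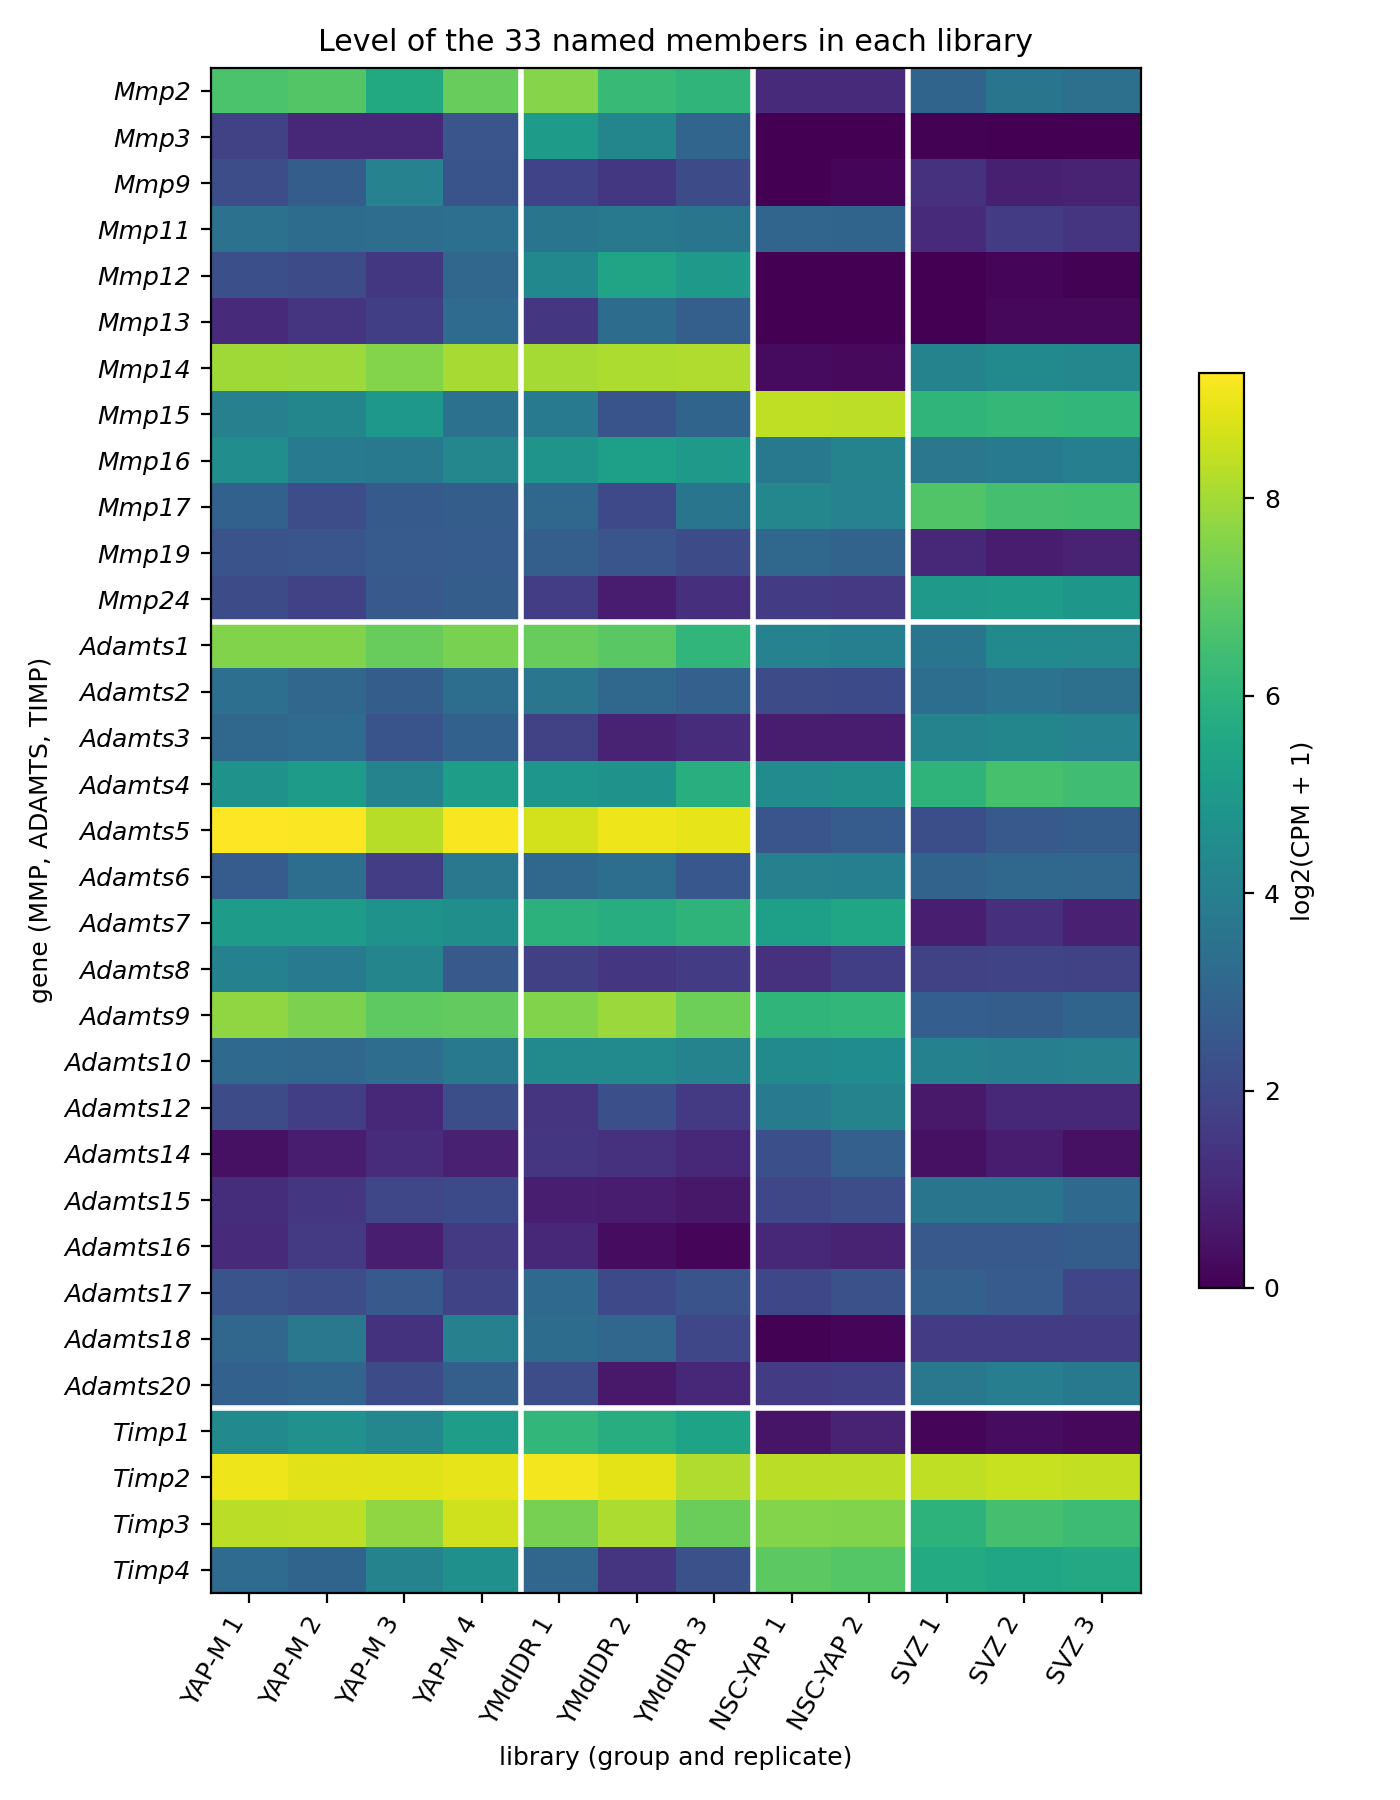
Level of the 33 members that averaged 5 CPM or more in a group, or are TIMP genes, as log2(CPM + 1) for each gene (rows) and library (columns, by group). Adamts5, Timp1, Mmp14 and Mmp2 are bright in YAP-M and YMdIDR libraries, and Mmp15 and Timp4 in NSC-YAP libraries.

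The collagenase and gelatinase pair Mmp14 and Mmp2 was high in YAP-M and YMdIDR libraries. Mmp14 (chr14:54431612-54445364), a membrane-type MMP that cuts fibrillar collagen and activates the MMP2 precursor, had 249, 241, 188 and 262 CPM in the YAP-M libraries, 262, 277 and 284 CPM in the YMdIDR libraries, 0.203 and 0.163 CPM in the NSC-YAP libraries and 16.9, 20.4 and 18.7 CPM in the SVZ libraries. Every YAP-M and YMdIDR library was above every SVZ library, and both NSC-YAP libraries were below them. The log2 fold change over SVZ was 3.65 ± 0.13 in YAP-M libraries (SE; edgeR adjusted p = 4.94e-09) and 3.88 ± 0.14 in YMdIDR libraries (adjusted p = 3.22e-09). Mmp2 (chr8:92827291-92853420), gelatinase A, had 100.3, 108, 48.1 and 139 CPM in the YAP-M libraries, 191, 77.1 and 65.8 CPM in the YMdIDR libraries, 1.22 and 1.14 CPM in the NSC-YAP libraries and 6.95, 11.1 and 9.72 CPM in the SVZ libraries. The groups did not overlap SVZ, although YAP-M replicate 3 was low and YMdIDR replicate 1 high among their own groups. Its log2 fold change over SVZ was 3.42 ± 0.46 in YAP-M libraries (adjusted p = 3.54e-05) and 3.59 ± 0.47 in YMdIDR libraries (adjusted p = 3.05e-05), and the YMdIDR value was 2.95 without YMdIDR replicate 1. Mmp9, gelatinase B, had 3.53, 5.67, 16.2 and 4.3 CPM in the YAP-M libraries, 2.65, 1.85 and 3.4 CPM in the YMdIDR libraries, 0 and 0.0815 CPM in the NSC-YAP libraries and 1.47, 0.764 and 0.831 CPM in the SVZ libraries. All YAP-M libraries exceeded SVZ, by 2.85 ± 0.59 on the log2 scale (adjusted p = 0.00099), which was 2.24 without YAP-M replicate 3. In YMdIDR libraries the value was 1.36 ± 0.61 (adjusted p = 0.0594) and was not called.

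In the same YAP-M replicate 3, the neutrophil genes S100a8 and S100a9 had 7.93 and 5.8 CPM, against 2.26 to 3.82 and 1.54 to 2.0 CPM in the other YAP-M libraries. Csf3r, the marker that made up most of the summed list, was lowest in that library, with 22.4 CPM against 25.3 to 26.9 CPM in the other YAP-M libraries. Of the 6 neutrophil markers, Ly6g, Mpo and Elane were at or near 0 in every library, and the summed list lay at 29.35 to 36.25 CPM in YAP-M, 29.32 to 56.42 CPM in YMdIDR, 0.0814 and 0.122 CPM in NSC-YAP and 7.6 to 10.31 CPM in SVZ libraries. Their part in the Mmp9 values was not tested. Mmp2 stood in YMdIDR replicate 1 beside a summed level of 4894 CPM of 7 pericyte and fibroblast markers, against 2722 and 1228 CPM in YMdIDR replicates 2 and 3. Acta2 alone gave 4147 of the 4894 CPM. Col1a1 (400.2 CPM against 170.9 and 94.5 CPM) and Dcn (218.9 CPM against 24.6 and 10.5 CPM) were also highest in this library of the 3. Pdgfrb and Rgs5 were lowest in it, at 68.9 and 41.2 CPM. Among the 7 markers, Lum and Pdgfra lay between the values of the other YMdIDR libraries. That list lay at 1866 to 2840 CPM in YAP-M, 51.49 and 54.14 CPM in NSC-YAP and 332.7 to 414 CPM in SVZ libraries, and Lum, of this list, was at 0 in both NSC-YAP libraries. The part of these cells in the Mmp2 and Mmp14 values was not tested.

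Mmp15, Mmp16, Mmp17 and Mmp24, the other membrane-type MMP genes above 5 CPM, did not follow Mmp14. Mmp15 (chr8:95352268-95375080), a transmembrane relative of Mmp14, had 15.5, 18.1, 29.5 and 10.1 CPM in the YAP-M libraries, 13.1, 4.32 and 7.02 CPM in the YMdIDR libraries, 335 and 325 CPM in the NSC-YAP libraries and 65.8, 70.9 and 69.2 CPM in the SVZ libraries. No groups overlapped except YAP-M and YMdIDR, and the NSC-YAP libraries were the highest. Mmp17, which is anchored by a lipid, had 6.37, 3.52, 5.25 and 5.64 CPM in the YAP-M libraries, 7.74, 3.15 and 11.1 CPM in the YMdIDR libraries, 18.4 and 16.5 CPM in the NSC-YAP libraries and 108, 91.2 and 88.4 CPM in the SVZ libraries. All SVZ libraries stood above all others, and NSC-YAP stood above both remaining groups. Mmp24, a membrane-type MMP expressed in neurons, had 3.38, 2.44, 4.95 and 5.64 CPM in the YAP-M libraries, 2.18, 0.631 and 1.46 CPM in the YMdIDR libraries, 2.04 and 1.88 CPM in the NSC-YAP libraries and 31.0, 34.2 and 29.2 CPM in the SVZ libraries, so it too was high in SVZ libraries. In YAP-M libraries over SVZ the log2 fold changes were -4.20 ± 0.34 for Mmp17 (adjusted p = 8.28e-07), -2.94 ± 0.34 for Mmp24 (adjusted p = 1.13e-05) and -1.91 ± 0.36 for Mmp15 (adjusted p = 0.000448). In YMdIDR libraries over SVZ they were -4.46 ± 0.41 for Mmp24 (adjusted p = 2.01e-06), -3.71 ± 0.37 for Mmp17 (adjusted p = 3.89e-06) and -3.07 ± 0.41 for Mmp15 (adjusted p = 3.83e-05). Mmp16, a membrane-type MMP of brain, had 22.3, 12.6, 12.5 and 18.4 CPM in the YAP-M libraries, 26.8, 36.4 and 31.3 CPM in the YMdIDR libraries, 12.5 and 16.8 CPM in the NSC-YAP libraries and 11.9, 12.8 and 14.9 CPM in the SVZ libraries. It was higher in YMdIDR than in SVZ libraries by 1.26 ± 0.23 (adjusted p = 0.000445) and not called in YAP-M libraries (0.32 ± 0.22, adjusted p = 0.194). Neuronal markers were also at their highest in SVZ libraries, with the sums given above, and their part in the Mmp17 and Mmp24 values was not tested.

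**Figure D3:**
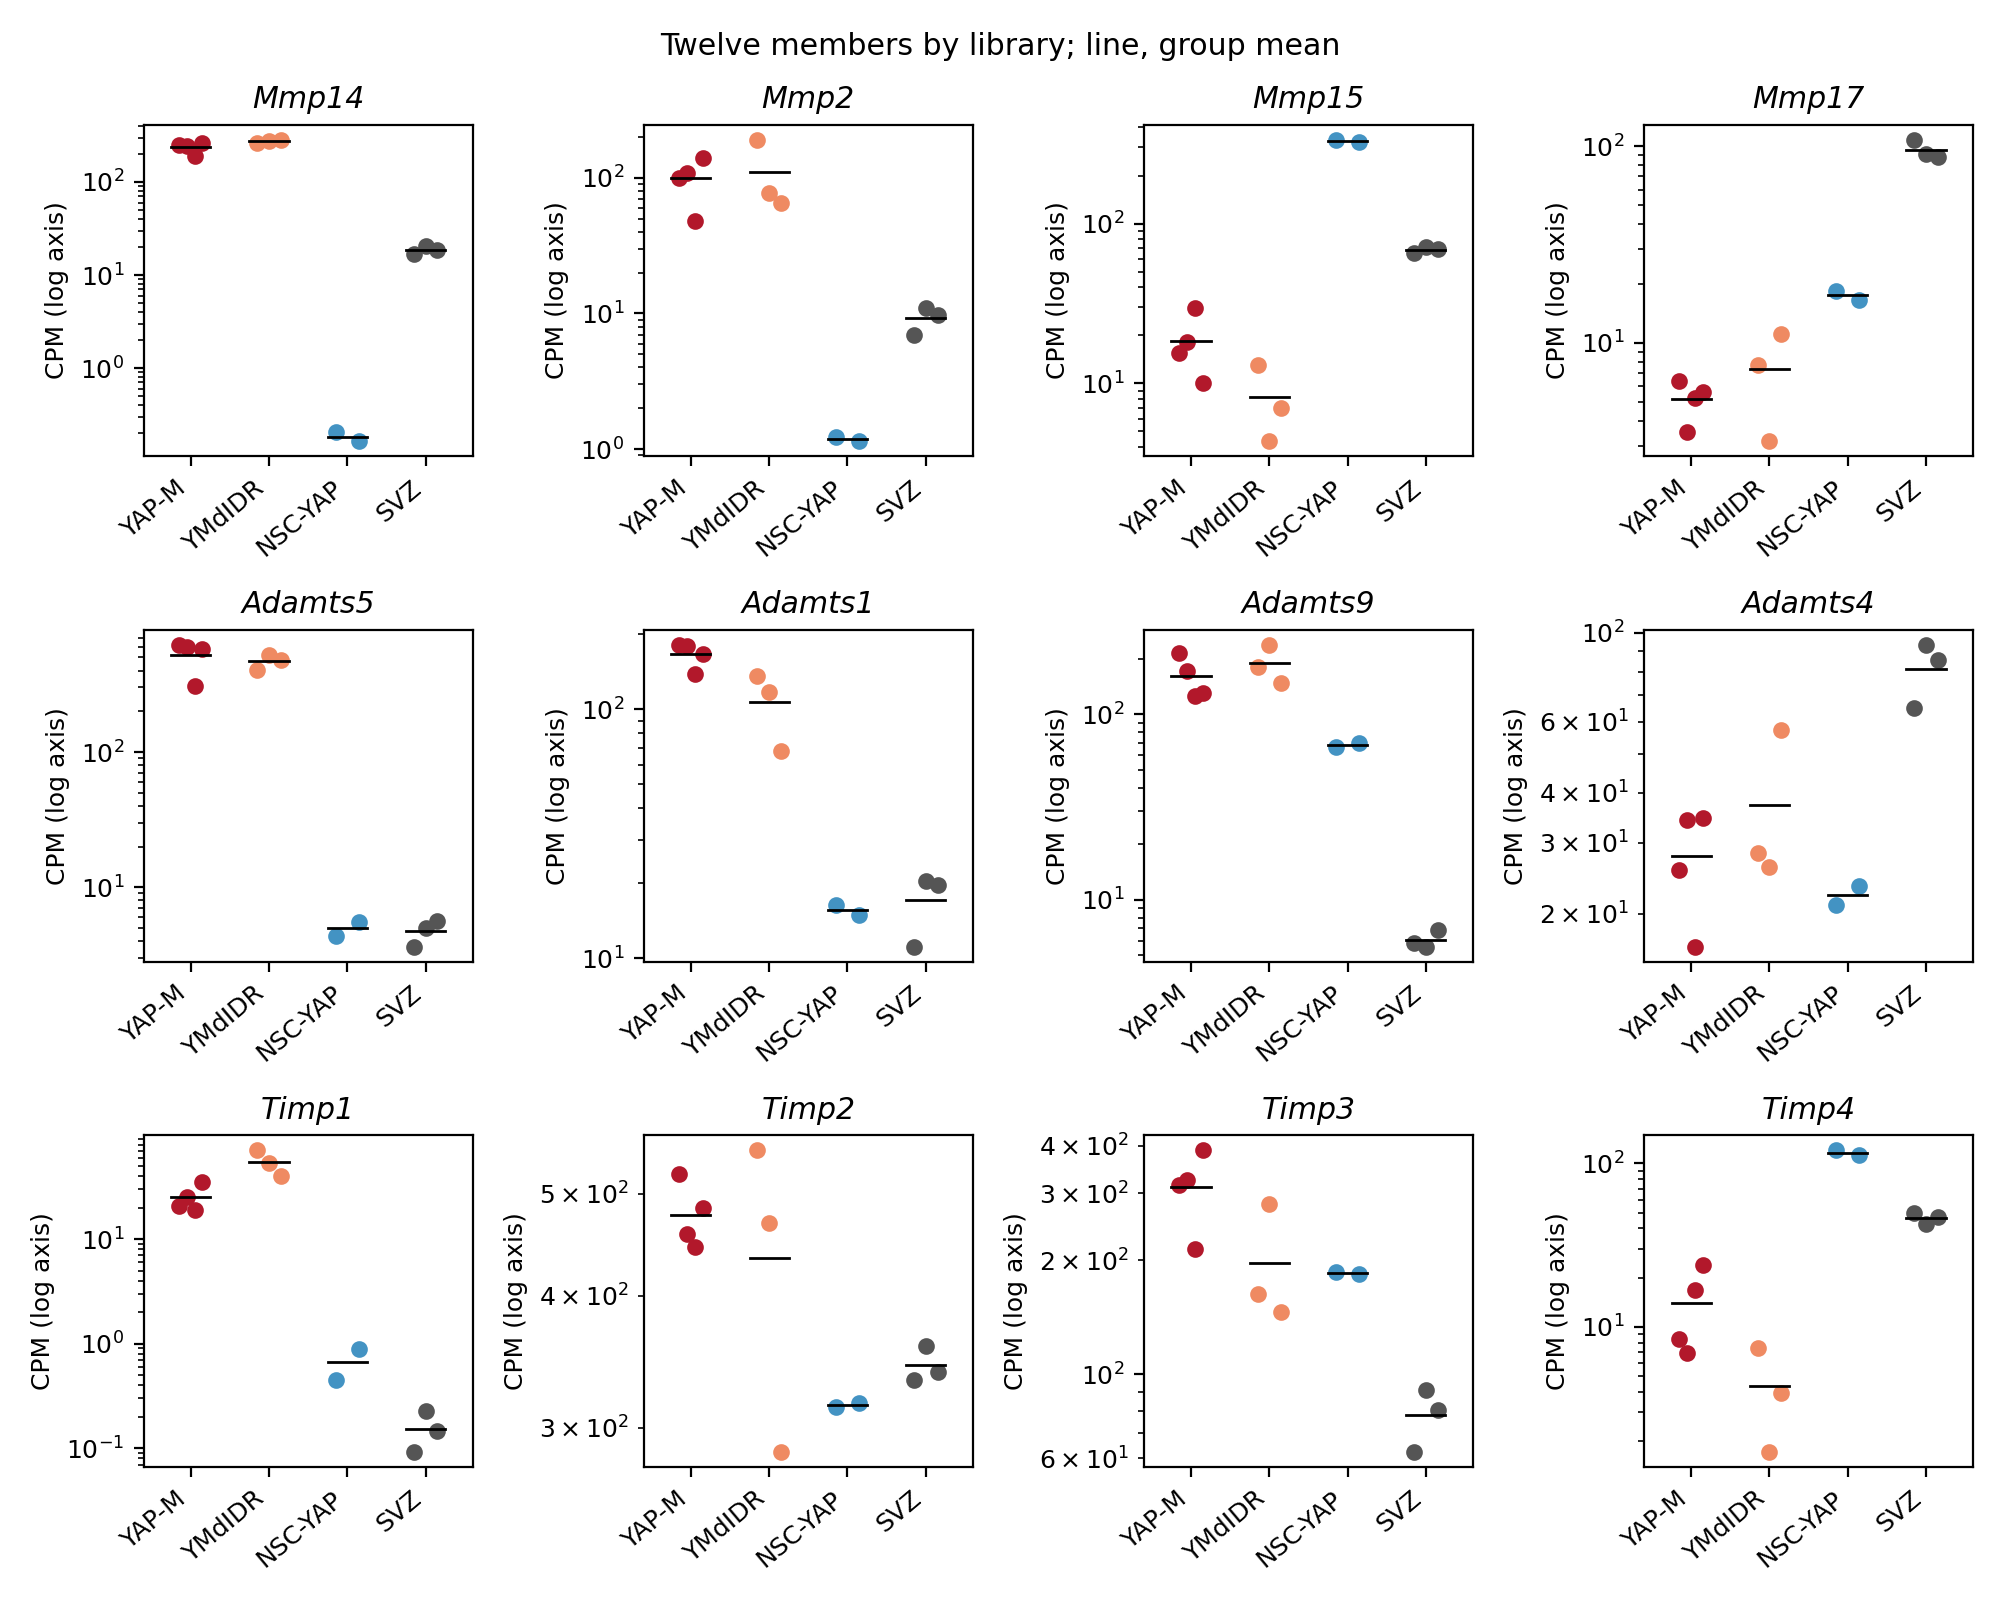
CPM of 12 members by library on log axes, with a line at the group mean. Mmp14, Mmp2, Adamts5, Adamts1 and Timp1 are high in the YAP-M and YMdIDR libraries, Mmp15 and Timp4 in the NSC-YAP libraries and Mmp17 and Adamts4 in the SVZ libraries.

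The secreted MMP genes of the chromosome 9 cluster were close to 0 in SVZ and at 0 in NSC-YAP libraries. Mmp3, stromelysin-1, had 2.43, 1.07, 1.07 and 4.42 CPM in the YAP-M libraries, 33.9, 18.0 and 7.15 CPM in the YMdIDR libraries, 0 and 0 CPM in the NSC-YAP libraries and 0.0461, 0 and 0 CPM in the SVZ libraries. Mmp12, macrophage metalloelastase, had 3.75, 3.3, 1.83 and 7.42 CPM in the YAP-M libraries, 19.0, 41.6 and 31.0 CPM in the YMdIDR libraries, 0 and 0 CPM in the NSC-YAP libraries and 0, 0.0899 and 0.0489 CPM in the SVZ libraries. Mmp13, the main interstitial collagenase of rodents, had 1.21, 1.67, 2.26 and 8.46 CPM in the YAP-M libraries, 1.79, 8.6 and 6 CPM in the YMdIDR libraries, 0 and 0 CPM in the NSC-YAP libraries and 0, 0.135 and 0.147 CPM in the SVZ libraries. Each YAP-M and YMdIDR library was above each SVZ library for the 3 genes. With 1 count of Mmp3 over the SVZ group, the ratio was 147 in YAP-M libraries (exact 95% counting interval 26.2 to 5840) and 1280.0 in YMdIDR libraries (229 to 50600), with edgeR adjusted p of 0.000515 and 2.14e-05. The single SVZ count lay in replicate 1, without which the fitted log2 fold changes were 8.78 in YAP-M and 11.88 in YMdIDR libraries in place of 6.77 and 9.89, and without YMdIDR replicate 1 the YMdIDR value was 9.25. With 3 counts of Mmp12, the ratio was 89.1 in YAP-M libraries (30.3 to 434) and 652 in YMdIDR libraries (223 to 3160), with adjusted p of 3.97e-05 and 2.2e-06, and the fitted values of 6.30 and 9.20 were 7.19 and 10.05 without SVZ replicate 2. For Mmp13 the fitted log2 fold change was 5.11 ± 1.10 in YAP-M libraries (adjusted p = 0.00154), or 4.17 without YAP-M replicate 4, and 5.80 ± 1.12 in YMdIDR libraries (adjusted p = 0.000777). Mmp10, stromelysin-2, stayed under 5 CPM in each group and was singled out after its values were seen. It had 0.368, 1.07, 0.895 and 1.37 CPM in the YAP-M libraries, 3.89, 2.52 and 2.08 CPM in the YMdIDR libraries, 0 and 0 CPM in the NSC-YAP libraries and 0, 0 and 0 CPM in the SVZ libraries. With the SVZ group set to the floor of 3 counts, it was at least 19.9-fold higher in YAP-M libraries and at least 61-fold higher in YMdIDR libraries.

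The remaining genes of the cluster were not tested. Mmp8, neutrophil collagenase, which was chosen after its values were seen, had 14, 12, 50 and 24 counts in the YAP-M libraries, 18, 12 and 9 counts in the YMdIDR libraries, 0 in both NSC-YAP libraries and 4, 2 and 2 counts in the SVZ libraries. The high YAP-M library was again replicate 3. Over all libraries Mmp7 had 4 counts, all in YAP-M, Mmp27 had 3, all in YMdIDR replicate 1, Mmp1b had 1, Mmp20 had 1 and Mmp1a had 0. The near-identical pairs Mmp1a and Mmp1b, and the similar pair Mmp3 and Mmp10, could share reads that the counting splits, and Mmp12 and Mmp1b overlap on opposite strands. Of 8 markers of microglia and macrophages, 6 were higher in YAP-M than in SVZ libraries, and the summed list lay at 756.6 to 1022 CPM in YAP-M, 801.5 to 942.8 CPM in YMdIDR, 39.36 and 40.65 CPM in NSC-YAP and 313.4 to 430.0 CPM in SVZ libraries. Their part in the Mmp12 values was not tested.

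**Figure D4:**
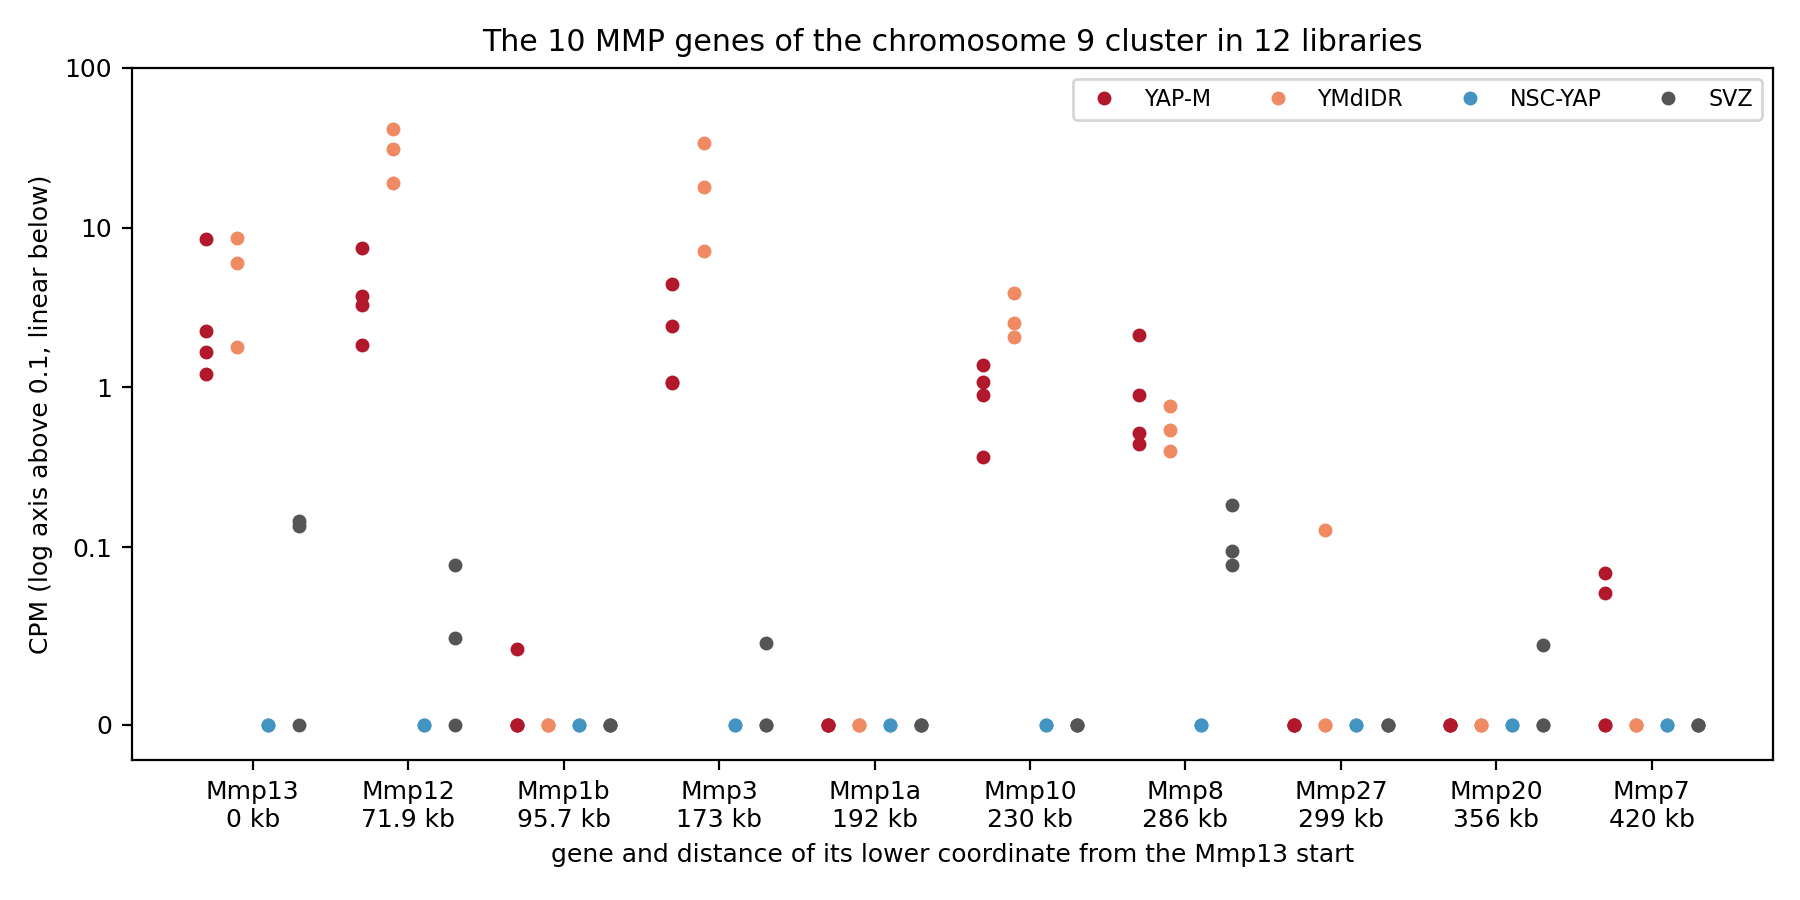
CPM of the 10 MMP genes of the chromosome 9 cluster in the 12 libraries, in genome order, with the distance of each gene from Mmp13. The axis is logarithmic above 0.1 and linear below, and the points of NSC-YAP libraries all lie at 0.

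Of the other secreted MMP genes, Mmp11 and Mmp19 were higher than SVZ in all 3 remaining groups. Mmp11, stromelysin-3, which furin activates inside the cell, had 10.2, 8.82, 9 and 9.35 CPM in the YAP-M libraries, 11.3, 12.5 and 11.2 CPM in the YMdIDR libraries, 7.16 and 6.93 CPM in the NSC-YAP libraries and 1.2, 2.16 and 1.71 CPM in the SVZ libraries. Mmp19, a widely expressed soluble MMP, had 4.23, 4.45, 5.33 and 5.49 CPM in the YAP-M libraries, 5.94, 4.41 and 3.36 CPM in the YMdIDR libraries, 7.53 and 6.73 CPM in the NSC-YAP libraries and 1.1, 0.629 and 0.88 CPM in the SVZ libraries. Neither gene's SVZ values overlapped those of another group. Over SVZ the log2 fold changes of Mmp11 were 2.46 ± 0.19 in YAP-M, 2.78 ± 0.20 in YMdIDR and 2.06 ± 0.21 in NSC-YAP libraries (adjusted p = 6.27e-07, 3.15e-07 and 7.62e-06). Those of Mmp19 were 2.48 ± 0.27 in YAP-M, 2.39 ± 0.28 in YMdIDR and 3.03 ± 0.30 in NSC-YAP libraries (adjusted p = 7.25e-06, 1.21e-05 and 5.22e-06). Mmp11 overlaps Chchd10 and Mmp19 overlaps Tmem198b on the opposite strand, and whether the counting used strand is not given in the sources used here.

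The proteoglycan-cutting ADAMTS genes split by member. Adamts5 (chr16:85858170-85901125), a main aggrecanase of mouse cartilage, had 617, 594, 310.1 and 577 CPM in the YAP-M libraries, 402, 524 and 482 CPM in the YMdIDR libraries, 4.4 and 5.54 CPM in the NSC-YAP libraries and 3.64, 4.99 and 5.62 CPM in the SVZ libraries. YAP-M replicate 3 was the lowest of its group and still far above every SVZ and NSC-YAP library. Its log2 fold change over SVZ was 6.79 ± 0.31 in YAP-M libraries (adjusted p = 1.92e-08) and 6.63 ± 0.31 in YMdIDR libraries (adjusted p = 1.78e-08). Adamts1 (chr16:85793827-85803113), its neighbour on chromosome 16, which cuts versican and aggrecan, had 181, 180.2, 139 and 167 CPM in the YAP-M libraries, 136, 118 and 67.9 CPM in the YMdIDR libraries, 16.3 and 15.0 CPM in the NSC-YAP libraries and 11.2, 20.5 and 19.7 CPM in the SVZ libraries, again without overlap between the YAP-M or YMdIDR libraries and the others. The log2 fold change over SVZ was 3.28 ± 0.28 in YAP-M libraries (adjusted p = 1.15e-06) and 2.65 ± 0.28 in YMdIDR libraries (adjusted p = 5.48e-06). Adamts9 (chr6:92772699-92943492), a versican-cutting protease, had 214, 172, 126 and 130.0 CPM in the YAP-M libraries, 181, 236 and 148 CPM in the YMdIDR libraries, 66.7 and 70.0 CPM in the NSC-YAP libraries and 5.85, 5.57 and 6.84 CPM in the SVZ libraries. Every library of YAP-M, YMdIDR and NSC-YAP exceeded SVZ, by 4.72 ± 0.25, 4.95 ± 0.26 and 3.49 ± 0.25 on the log2 scale (adjusted p = 4.64e-08, 3.09e-08 and 5.91e-07).

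Adamts4, another aggrecanase, went the other way and had 25.7, 34.3, 16.5 and 34.5 CPM in the YAP-M libraries, 28.3, 26.1 and 57.2 CPM in the YMdIDR libraries, 21.0 and 23.4 CPM in the NSC-YAP libraries and 64.9, 93.1 and 85.4 CPM in the SVZ libraries. The SVZ libraries were above all others. Its log2 fold change over SVZ was -1.55 ± 0.30 in YAP-M libraries (adjusted p = 0.000618) and -1.13 ± 0.33 in YMdIDR libraries (adjusted p = 0.00803), and the YMdIDR value was -0.96 without YMdIDR replicate 1 and -0.91 without YMdIDR replicate 2, where it was not called. Adamts15, a proteoglycan-cutting protease, had 1.32, 1.78, 2.9 and 3.27 CPM in the YAP-M libraries, 0.727, 0.631 and 0.53 CPM in the YMdIDR libraries, 2.89 and 3.55 CPM in the NSC-YAP libraries and 11.2, 11.2 and 7.92 CPM in the SVZ libraries, with SVZ highest and YMdIDR lowest. Adamts20, known in mice from the belted coat-colour mutant, had 6.33, 7.22, 3.37 and 5.94 CPM in the YAP-M libraries, 3.55, 0.54 and 1.1 CPM in the YMdIDR libraries, 2.16 and 2.28 CPM in the NSC-YAP libraries and 12.02, 14.5 and 12.5 CPM in the SVZ libraries. Over SVZ, Adamts15 had a log2 fold change of -2.12 ± 0.29 in YAP-M (adjusted p = 4.72e-05) and -3.99 ± 0.37 in YMdIDR libraries (adjusted p = 1.88e-06). For Adamts20 these were -1.18 ± 0.45 (adjusted p = 0.0293) and -2.90 ± 0.53 (adjusted p = 0.000369). The Adamts20 call in YAP-M libraries was lost without YAP-M replicate 1, 3 or 4 or any SVZ library (adjusted p = 0.0554 to 0.0988), and without YMdIDR replicate 1 its YMdIDR value was -3.97. Adamts8, a proteoglycan-cutting protease first described as an inhibitor of vessel growth, had 15.7, 13.2, 17.5 and 5.08 CPM in the YAP-M libraries, 2.39, 1.76 and 2.16 CPM in the YMdIDR libraries, 1.51 and 2.28 CPM in the NSC-YAP libraries and 2.53, 2.74 and 2.44 CPM in the SVZ libraries. YAP-M libraries stood above the SVZ libraries by 2.32 ± 0.37 (adjusted p = 0.000153), and YMdIDR libraries did not (-0.29 ± 0.39, adjusted p = 0.51).

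The oligodendrocyte gene Mbp, which encodes a main protein of myelin, had 343, 334, 792 and 1430.0 CPM in the YAP-M libraries, 625, 206 and 349 CPM in the YMdIDR libraries, 2.85 and 2.4 CPM in the NSC-YAP libraries and 13010.0, 13360.0 and 16070.0 CPM in the SVZ libraries. Among the oligodendrocyte markers, Mbp, Mog and Mag were highest in the SVZ libraries, and Olig1 and Olig2 in the NSC-YAP libraries. Olig2 had 8.79 to 22.1 CPM in YAP-M, 2.57 to 10.9 CPM in YMdIDR, 623 and 587 CPM in NSC-YAP and 99.3 to 117.7 CPM in SVZ libraries. The part of oligodendrocytes in the Adamts4 and Timp4 values was not tested.

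Adamts7 and Adamts12, which cut cartilage oligomeric matrix protein, were higher than SVZ in each of the other groups. Adamts7 (chr9:90163069-90208071) had 33.1, 33.1, 25.5 and 23.3 CPM in the YAP-M libraries, 61.4, 54.3 and 64.2 CPM in the YMdIDR libraries, 36.9 and 43.2 CPM in the NSC-YAP libraries and 0.737, 1.35 and 0.782 CPM in the SVZ libraries. No SVZ library came near the others, and YMdIDR was the highest group. The log2 fold change over SVZ was 4.90 ± 0.24 in YAP-M libraries (adjusted p = 2.65e-08), 5.96 ± 0.25 in YMdIDR libraries (adjusted p = 8.4e-09) and 5.38 ± 0.25 in NSC-YAP libraries (adjusted p = 4.3e-08). Adamts12 had 3.38, 2.26, 1.07 and 3.71 CPM in the YAP-M libraries, 1.62, 3.83 and 1.99 CPM in the YMdIDR libraries, 13.4 and 16.6 CPM in the NSC-YAP libraries and 0.553, 1.08 and 1.03 CPM in the SVZ libraries. NSC-YAP libraries were highest, and YAP-M replicate 3 fell within the SVZ range. The log2 fold change over SVZ was 1.56 ± 0.46 in YAP-M libraries (adjusted p = 0.00911), 1.48 ± 0.49 in YMdIDR libraries (adjusted p = 0.0157) and 4.08 ± 0.52 in NSC-YAP libraries (adjusted p = 4.09e-05). In YMdIDR libraries its call was lost without YMdIDR replicate 2 (1.04, adjusted p = 0.0716) or without SVZ replicate 1 (1.24, adjusted p = 0.0594).

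The procollagen N-proteinases Adamts2, Adamts3 and Adamts14 did not move together. Adamts2 had 9.49, 7.3, 5.63 and 9.28 CPM in the YAP-M libraries, 11.5, 7.75 and 6.18 CPM in the YMdIDR libraries, 3.34 and 3.26 CPM in the NSC-YAP libraries and 9.16, 10.6 and 9.72 CPM in the SVZ libraries, and was not called in YAP-M or YMdIDR libraries over SVZ. Adamts3, which also activates the lymphatic growth factor VEGF-C, had 7.62, 8.48, 4.26 and 6.34 CPM in the YAP-M libraries, 2.44, 0.856 and 1.28 CPM in the YMdIDR libraries, 0.651 and 0.693 CPM in the NSC-YAP libraries and 16.5, 18.1 and 16.2 CPM in the SVZ libraries, with SVZ highest and no overlap with it. Adamts14 had 0.331, 0.667, 1.28 and 0.816 CPM in the YAP-M libraries, 1.75, 1.49 and 1.06 CPM in the YMdIDR libraries, 3.83 and 6.24 CPM in the NSC-YAP libraries and 0.322, 0.629 and 0.342 CPM in the SVZ libraries, with NSC-YAP highest. The log2 fold changes of Adamts3 over SVZ were -1.34 ± 0.29 in YAP-M (adjusted p = 0.0014) and -3.47 ± 0.36 in YMdIDR libraries (adjusted p = 4.79e-06). Those of Adamts14 were 0.82 ± 0.47 in YAP-M libraries, which was not called (adjusted p = 0.127), and 1.72 ± 0.48 in YMdIDR libraries (adjusted p = 0.00651).

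Adamts6, Adamts10 and Adamts17 are linked to fibrillin microfibrils. Adamts6 had 5.52, 9.26, 2.22 and 12.2 CPM in the YAP-M libraries, 7.65, 9.14 and 4.68 CPM in the YMdIDR libraries, 15.6 and 15.2 CPM in the NSC-YAP libraries and 6.77, 7.64 and 7.33 CPM in the SVZ libraries. Adamts10 had 7.95, 7.56, 8.96 and 12.4 CPM in the YAP-M libraries, 20.5, 19.9 and 16.9 CPM in the YMdIDR libraries, 20.7 and 21.5 CPM in the NSC-YAP libraries and 16.0, 14.8 and 15.3 CPM in the SVZ libraries. Adamts17 had 4.23, 3.52, 4.99 and 2.71 CPM in the YAP-M libraries, 7.99, 3.11 and 4.2 CPM in the YMdIDR libraries, 3.05 and 3.87 CPM in the NSC-YAP libraries and 6.22, 5.26 and 2.83 CPM in the SVZ libraries. None of the 3 was called against SVZ in YAP-M, YMdIDR or NSC-YAP libraries, and the Adamts17 values of all 4 groups overlapped. Adamts10 in YAP-M over SVZ libraries missed only the fold threshold, with -0.74 ± 0.16 (adjusted p = 0.0016) and no overlap. Adamts16, which can cut fibronectin, had 1.21, 1.96, 0.725 and 2 CPM in the YAP-M libraries, 1.11, 0.225 and 0.0883 CPM in the YMdIDR libraries, 1.1 and 0.856 CPM in the NSC-YAP libraries and 5.07, 5.08 and 5.72 CPM in the SVZ libraries, all SVZ libraries being above all others. Its relative Adamts18 had 7.29, 12.04, 1.58 and 15.6 CPM in the YAP-M libraries, 8.63, 7.39 and 2.91 CPM in the YMdIDR libraries, 0.0407 and 0.122 CPM in the NSC-YAP libraries and 2.07, 2.07 and 2.15 CPM in the SVZ libraries. The NSC-YAP libraries were lowest and YAP-M replicate 3 fell under the SVZ libraries while the other YAP-M libraries were above them. Over SVZ, Adamts16 had a log2 fold change of -1.83 ± 0.53 in YAP-M (adjusted p = 0.00784) and -3.45 ± 0.65 in YMdIDR libraries (adjusted p = 0.00049), which was -5.03 without YMdIDR replicate 1. Adamts18 had 2.12 ± 0.64 in YAP-M (adjusted p = 0.00964) and 1.59 ± 0.66 in YMdIDR libraries (adjusted p = 0.0442), and the YMdIDR call was lost without YMdIDR replicate 1 or 2 or any SVZ library (adjusted p = 0.0877 to 0.123).

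The inhibitors diverged too. Timp1 (chrX:20870166-20874735), an inducible inhibitor of most secreted MMPs, had 20.9, 25.04, 18.8 and 35.2 CPM in the YAP-M libraries, 70.3, 53.8 and 40.1 CPM in the YMdIDR libraries, 0.448 and 0.897 CPM in the NSC-YAP libraries and 0.0921, 0.225 and 0.147 CPM in the SVZ libraries. The groups followed each other without overlap, YMdIDR being the highest and SVZ the lowest. The log2 fold change over SVZ was 7.28 ± 0.43 in YAP-M libraries (adjusted p = 9.96e-08) and 8.41 ± 0.44 in YMdIDR libraries (adjusted p = 3.52e-08). Timp3 (chr10:86300372-86349506), a matrix-bound inhibitor that also blocks ADAMTS4 and ADAMTS5, had 314, 326, 214 and 389 CPM in the YAP-M libraries, 163, 282 and 146 CPM in the YMdIDR libraries, 186 and 184 CPM in the NSC-YAP libraries and 62.4, 91.0 and 80.6 CPM in the SVZ libraries. All SVZ libraries were lowest, and the log2 fold change was 1.99 ± 0.26 in YAP-M (adjusted p = 3.22e-05) and 1.33 ± 0.27 in YMdIDR libraries (adjusted p = 0.000745). Timp2 had 522, 458, 445 and 485 CPM in the YAP-M libraries, 549.6, 469 and 284 CPM in the YMdIDR libraries, 314 and 316 CPM in the NSC-YAP libraries and 333, 359 and 339 CPM in the SVZ libraries, and was not called in any of the 6 comparisons. In YAP-M libraries it missed only the fold threshold, without overlap. Its log2 fold change was 0.47 ± 0.18 over SVZ (adjusted p = 0.0275) and 0.60 ± 0.20 over NSC-YAP libraries (adjusted p = 0.0196). Timp4, the inhibitor with the narrowest tissue range, had 8.39, 6.89, 16.8 and 24.0 CPM in the YAP-M libraries, 7.39, 1.71 and 3.93 CPM in the YMdIDR libraries, 120.0 and 113 CPM in the NSC-YAP libraries and 49.5, 42.5 and 47.3 CPM in the SVZ libraries. NSC-YAP libraries were highest and no group other than YAP-M and YMdIDR overlapped. Over SVZ its log2 fold change was -1.73 ± 0.45 in YAP-M (adjusted p = 0.00413) and -3.41 ± 0.54 in YMdIDR libraries (adjusted p = 0.000125), which was -4.03 without YMdIDR replicate 1.

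Timp1 lies within Syn1, Timp3 within Syn3 and Timp4 within Syn2, each on the opposite strand of a neuronal synapsin gene. Syn1 averaged 35.7 CPM in YAP-M, 41.3 in YMdIDR, 27.8 in NSC-YAP and 481 in SVZ libraries, while Timp1 was lowest in SVZ. Syn2 averaged 23.2 CPM in YAP-M, 13.2 in YMdIDR, 167 in NSC-YAP and 323 in SVZ libraries, and without strand its reads and those of Timp4 could not be told apart where their exons overlap.

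In NSC-YAP libraries against SVZ libraries, 10 of the 38 tested members were higher and 14 lower, beside 17.5% of all genes called higher and 27.6% called lower (45.1% together). The median log2 fold change was -0.45, against -0.10 over all genes. It was -0.13 with members at 0 counts in a group set to their bound and members with 3 counts or fewer in both groups set to 0. Mmp14 fell by 6.63 on the log2 scale (SE 0.24, adjusted p = 9.7e-09), and Mmp2 fell by 2.96 (SE 0.61, adjusted p = 0.00128). Mmp15 was higher by 2.27 ± 0.42 (adjusted p = 0.000576), while in YAP-M libraries over SVZ Mmp14 was higher and Mmp15 lower. Adamts14 was higher by 3.52 ± 0.50 (adjusted p = 8.94e-05), Timp1 by 2.08 ± 0.59 (adjusted p = 0.00918) and Timp3 by 1.25 ± 0.29 (adjusted p = 0.00274). Adamts3 had -4.64 ± 0.46 (adjusted p = 5.91e-06), Adamts18 -4.60 ± 1.15 (adjusted p = 0.00431) and Mmp24 -4.01 ± 0.47 (adjusted p = 2.19e-05). With 2 counts of Mmp9 over the NSC-YAP group, its level in NSC-YAP libraries was 25.1 times lower than in SVZ libraries (exact 95% counting interval 6.69 to 212). Adamts5 and Adamts1 were not called (0.07 ± 0.30 and -0.13 ± 0.30; adjusted p = 0.859 and 0.722). Adamts4, Adamts15, Adamts16, Adamts20, Adamts2 and Mmp17 were lower, with log2 fold changes between -2.55 and -1.57.

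Timp4 was higher by 1.33 ± 0.52 in NSC-YAP libraries (adjusted p = 0.0422), a call lost when any 1 library of either group was left out (adjusted p = 0.0778 to 0.121). The Timp1 call was lost without NSC-YAP replicate 2 (1.51, adjusted p = 0.1), and the Adamts16 call without either NSC-YAP library (adjusted p = 0.0537 and 0.0768). Quantile normalization moved the median of all genes in this comparison to 0.25, and 7 members were then lower, since Adamts2, Adamts15, Adamts16, Adamts18, Mmp9, Mmp23 and Mmp25 lost their calls. Without NSC-YAP replicate 1 the Mmp9 log2 fold change was -3.53 and that of Adamts18 -4.01; without NSC-YAP replicate 2 they were -7.62 and -5.51.

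Against NSC-YAP libraries, 19 members were higher and 7 lower in YAP-M libraries, beside 28.9% and 21.6% of all genes (50.4% together). In YMdIDR libraries 17 were higher and 8 lower, beside 27.4% and 20.4% of all genes (47.8% together). These comparisons share the NSC-YAP libraries. The median log2 fold change over the tested members was 0.91 in YAP-M and 0.65 in YMdIDR libraries, against 0.10 and 0.13 over all genes, and quantile normalization moved the medians over all genes to -0.18 and -0.13. Mmp14 had the highest fitted value among members with reads in both groups, 10.28 ± 0.25 in YAP-M (adjusted p = 9.45e-10) and 10.51 ± 0.25 in YMdIDR libraries (adjusted p = 7.64e-10). Adamts5 had 6.72 ± 0.37 in YAP-M (adjusted p = 5.58e-08) and 6.56 ± 0.37 in YMdIDR libraries (adjusted p = 7.66e-08). Mmp2 had 6.38 ± 0.67 (adjusted p = 6.77e-06) and 6.55 ± 0.68 (adjusted p = 7.06e-06), the YMdIDR value being 5.91 without its replicate 1. Timp1 had 5.21 ± 0.42 (adjusted p = 9.78e-07) in YAP-M and 6.34 ± 0.44 (adjusted p = 3.57e-07) in YMdIDR libraries. Against the floor of 3 counts over the NSC-YAP group, Mmp12 was at least 67.9-fold, Mmp13 at least 56.2-fold and Mmp3 at least 37.4-fold higher in YAP-M libraries. In YMdIDR libraries these bounds were 497-fold for Mmp12, 88.5-fold for Mmp13 and 325-fold for Mmp3. The fitted log2 fold change of Mmp13 in YAP-M libraries, 9.35, was 8.35 without YAP-M replicate 4, and that of Mmp3 in YMdIDR libraries, 11.88, was 11.23 without YMdIDR replicate 1.

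Mmp15 had the lowest value against NSC-YAP, -4.18 ± 0.40 in YAP-M (adjusted p = 3.29e-06) and -5.34 ± 0.47 in YMdIDR libraries (adjusted p = 1.93e-06). Timp4 had -3.05 ± 0.49 (adjusted p = 0.000183) in YAP-M and -4.74 ± 0.58 (adjusted p = 2.71e-05) in YMdIDR libraries, and the YMdIDR value was -5.36 without YMdIDR replicate 1. Adamts14 had -2.70 and -1.81, Adamts12 -2.52 and -2.60, and Mmp17 -1.74 and -1.25 in YAP-M and YMdIDR libraries. Adamts10 was lower in YAP-M libraries, with a log2 fold change of -1.20 ± 0.18 (adjusted p = 0.00012), and Adamts15 in YMdIDR libraries, with -2.34 ± 0.38 (adjusted p = 0.000225). Adamts7, Timp2 and Timp3 were not called in either comparison. In YAP-M libraries they missed only the fold threshold, with -0.48, 0.60 and 0.75 (adjusted p = 0.0451, 0.0196 and 0.0348). Adamts7 did so in YMdIDR libraries too, with 0.58 (adjusted p = 0.0293). Calls near the threshold were lost with 1 library left out. In YAP-M libraries these were Adamts20 (adjusted p = 0.0642 to 0.164) and Mmp24 (0.058 to 0.159), and in YMdIDR libraries Adamts3, which was 0.67 without YMdIDR replicate 1, Mmp16, which was 0.99 without YMdIDR replicate 2 and 0.89 without NSC-YAP replicate 1, Mmp17, which was -0.89 without YMdIDR replicate 2, and Adamts14, with an adjusted p of 0.0539 without NSC-YAP replicate 2.

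YAP-M libraries were also set against YMdIDR libraries, whose construct is named for a missing part of YAP-M. Of the 38 tested members, 9 were higher and 6 lower in YAP-M libraries, which is 23.7% and 15.8%, beside 9.61% and 6.78% of all genes (16.4% together). The median log2 fold change was -0.03 over the members and 0.01 over all genes. Of the 8 members with the highest levels per kb, which were the same in both groups, Timp1 was called lower and the other 7 were not called. The log2 fold change of Adamts1 was 0.64 ± 0.25 (adjusted p = 0.0561) and that of Timp3 0.66 ± 0.25 (adjusted p = 0.0515). Those of Mmp14, Mmp2, Adamts5, Adamts9 and Timp2 were -0.22 ± 0.11, -0.17 ± 0.39, 0.16 ± 0.22, -0.23 ± 0.20 and 0.14 ± 0.17 (adjusted p = 0.138, 0.756, 0.587, 0.357 and 0.552), and a p that misses the threshold does not show that levels were alike. Each family had calls in both directions, with 4 MMP genes higher and 3 lower, 4 ADAMTS genes higher and 2 lower, and 1 TIMP gene higher and 1 lower.

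Mmp3 had the largest difference, -3.12 ± 0.60 (adjusted p = 0.00245), with every YAP-M library below every YMdIDR library. It was -2.48 without YMdIDR replicate 1, the YMdIDR library in which Mmp3 was highest. Mmp12 followed with -2.90 ± 0.44 (adjusted p = 0.000678) and no overlap. None of the 8 microglia and macrophage markers was called between these groups, and their summed levels overlapped, at 756.6 to 1022 CPM in YAP-M and 801.5 to 942.8 CPM in YMdIDR libraries. Single markers did not all overlap. Cd68 was lower in YAP-M (81.2 to 112 CPM) than in YMdIDR libraries (126.8 to 176.1 CPM). P2ry12 (37.1 to 64.7 against 19.6 to 35.0 CPM) and Csf1r (372.7 to 476.4 against 333.8 to 364.8 CPM) were higher. The part of these cells in the Mmp12 difference was not tested. Mmp10 had -1.60 ± 0.44 (adjusted p = 0.0194), a call lost without YMdIDR replicate 1 (-1.31, adjusted p = 0.0532). Timp1 had -1.13 ± 0.25 (adjusted p = 0.00477), again without overlap, and -0.91 without YMdIDR replicate 1. Adamts7 had -1.06 ± 0.17 (adjusted p = 0.000828) and Adamts10 -1.05 ± 0.16 (adjusted p = 0.000634), both without overlap. Adamts7 had an absolute value under 1 without YAP-M replicate 3 (-0.98) or 4 (-0.96). Adamts10 did so without YAP-M replicate 1 (-0.98) or 2 (-0.93) or YMdIDR replicate 2 (-0.99), and also lost its call without YMdIDR replicate 1.

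Adamts8 was the member most raised in YAP-M over YMdIDR libraries, by 2.61 ± 0.38 (adjusted p = 0.000416), and its lowest YAP-M value was above the highest of YMdIDR. Adamts8 (chr9:30942562-30963838) and Adamts15 (chr9:30899155-30922452) lie next to each other on opposite strands, and Adamts15 was higher by 1.87 ± 0.34 (adjusted p = 0.00157), also without overlap. Adamts3 was higher by 2.13 ± 0.33 (adjusted p = 0.000652) and Mmp24 by 1.52 ± 0.37 (adjusted p = 0.00744), both without overlap. These 4 calls held with each library left out in turn. Adamts20 had 1.72 ± 0.49 (adjusted p = 0.0162), Timp4 1.69 ± 0.49 (adjusted p = 0.0176) and Mmp15 1.16 ± 0.38 (adjusted p = 0.0282), and in all 3 the groups overlapped through YMdIDR replicate 1. Mmp9 had 1.49 ± 0.54 (adjusted p = 0.0448). Timp3, not called with all libraries, was called at 1.04 without YMdIDR replicate 2.

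Several of these calls were lost when 1 library was left out. Mmp9 was 0.79 without YAP-M replicate 3 (adjusted p = 0.126) and was lost without any YMdIDR library (adjusted p = 0.0618 to 0.121). Mmp15 was 0.86 without YAP-M replicate 3 (adjusted p = 0.0669) and 0.89 without YMdIDR replicate 2 (adjusted p = 0.0835). Without YMdIDR replicate 3 it was 1.06, with an adjusted p of 0.0866, and was not called either. Adamts20 and Timp4 lost their calls without YMdIDR replicate 3 (1.47 and 1.61, adjusted p = 0.0595 and 0.0555), and without YMdIDR replicate 1 they were 2.79 and 2.31. With YAP-M and YMdIDR libraries alone in the fit, 5 members in place of 9 were higher, since Adamts20, Mmp15, Mmp9 and Timp4 had adjusted p of 0.0566, 0.0798, 0.0759 and 0.0572.

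**Figure D5:**
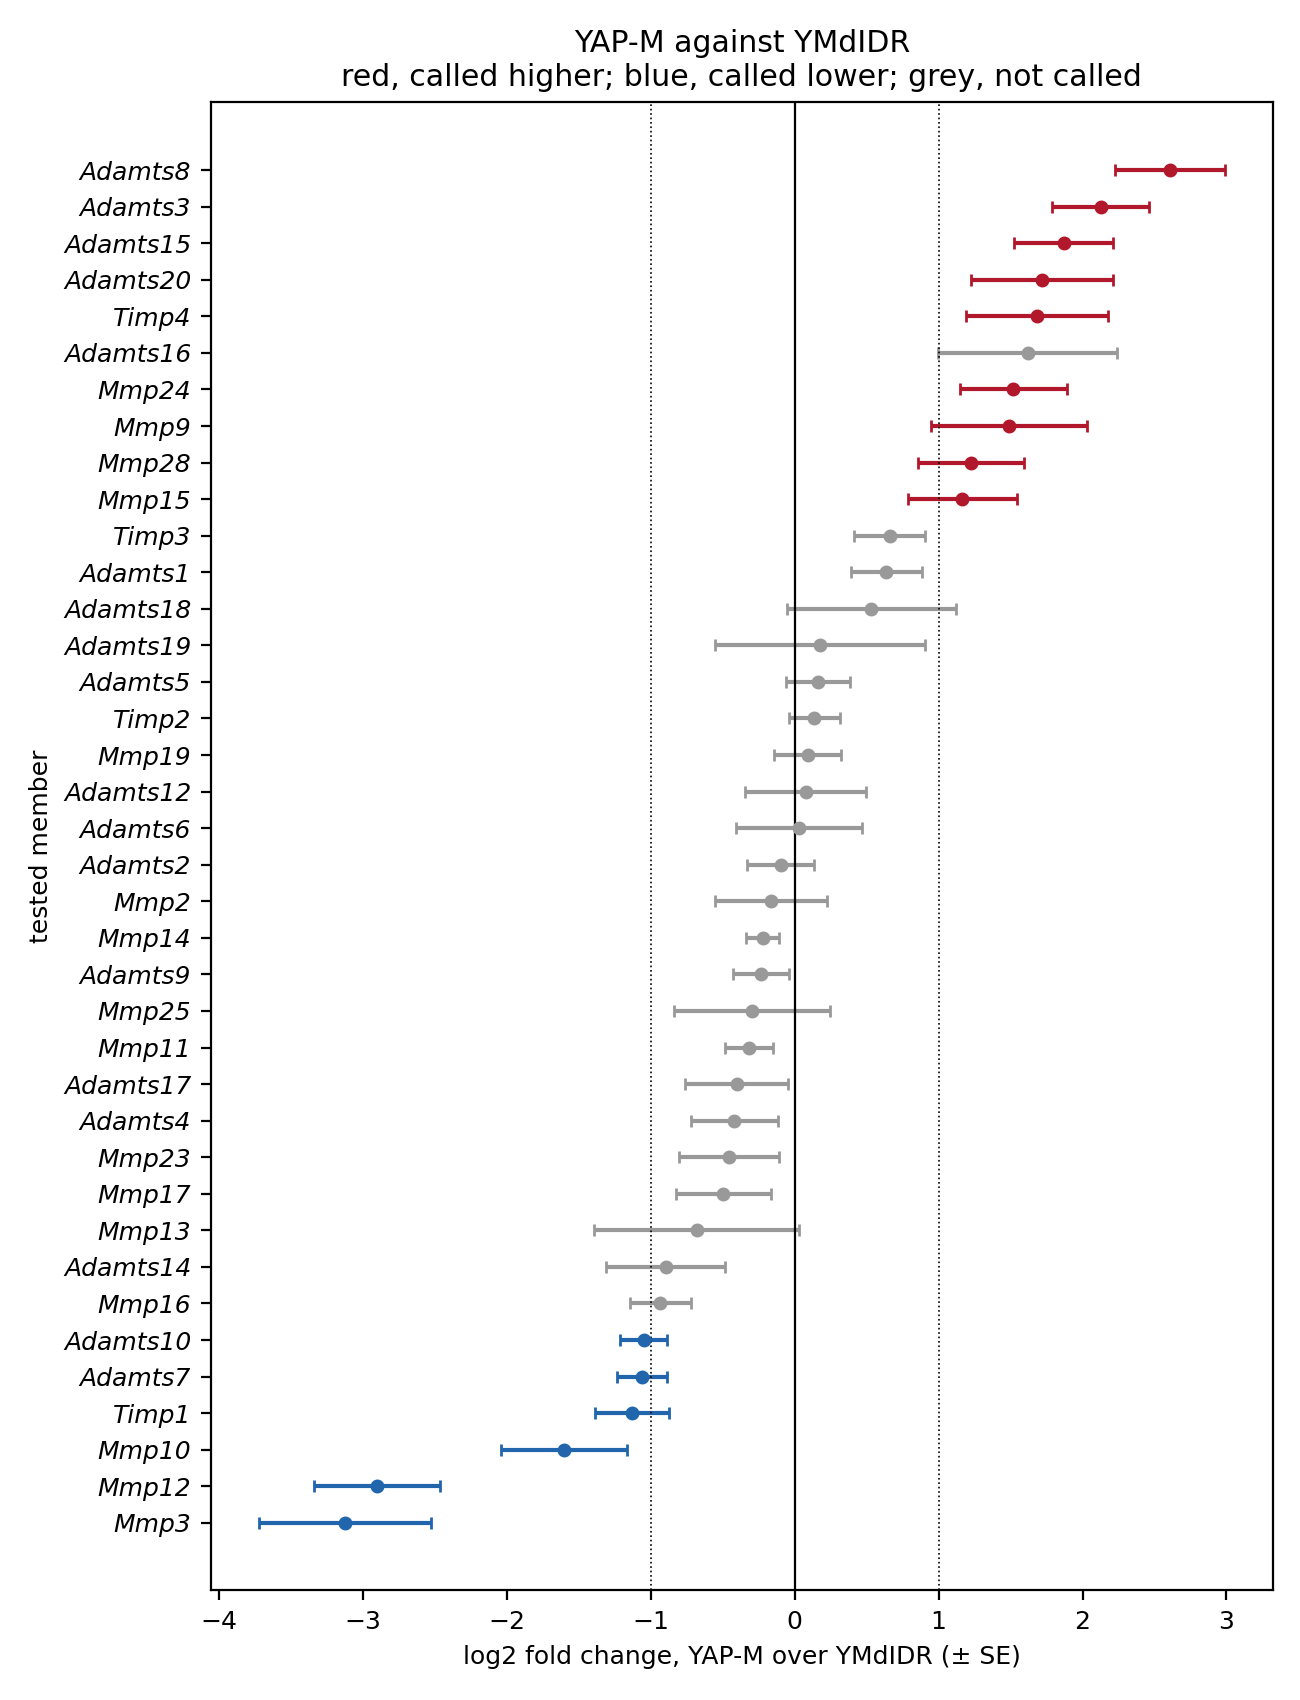
Log2 fold change of the 38 tested members in YAP-M over YMdIDR libraries with its standard error (bars), sorted, with dotted lines at 1 and -1. Red points were called higher (9), blue points lower (6), and grey points were not called (23).

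The 5 tested members under 5 CPM in each group were Adamts19, Mmp10, Mmp23, Mmp25 and Mmp28, and they are outside the rule for named genes and were chosen after their values were seen. Adamts19 was lower than SVZ in YAP-M and YMdIDR libraries (-4.76 and -4.93). Mmp25, a lipid-anchored MMP of leukocytes, had no counts in NSC-YAP libraries and was at least 27.7-fold higher in YAP-M and 33.6-fold higher in YMdIDR libraries against the floor of 3 counts. Its fitted log2 fold change in YMdIDR libraries, 8.63, was 7.82 without YMdIDR replicate 3. Mmp28, epilysin, was higher in YAP-M than in YMdIDR libraries (1.23 ± 0.37, adjusted p = 0.0196), a call lost without YMdIDR replicate 2 or 3 (adjusted p = 0.0614 and 0.0612). Mmp23 was higher in YMdIDR than in SVZ libraries (1.13), a call lost without SVZ replicate 2 (0.75).

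Other genes of matrix proteolysis were followed in 6 lists. Of the plasminogen activator system, whose protease plasmin activates several MMP precursors, 6 of 8 genes were tested, and 4 were higher and 1 lower in YAP-M over SVZ libraries, with a median of 2.93. Over all genes, 25.8% were called higher and 28.9% lower in this comparison, 26.9% and 29.6% in YMdIDR over SVZ, 17.5% and 27.6% in NSC-YAP over SVZ, and 9.61% and 6.78% in YAP-M over YMdIDR libraries, and the counts of these short lists stand beside those shares as descriptions. Those higher in YAP-M libraries included Plaur, the urokinase receptor (5.58 ± 0.17, adjusted p = 2.34e-09) and Plau, urokinase (3.70 ± 0.28, adjusted p = 5.41e-07). In NSC-YAP over SVZ libraries 2 were higher and 3 lower, Plat, tissue plasminogen activator, by 3.22 ± 0.19 and Serpine2 by 2.80 ± 0.20 being the higher ones (adjusted p = 1.29e-07 and 5.53e-07). Plat and Serpine2 were also the only genes of this list called in YAP-M over YMdIDR libraries, both higher, by 1.99 ± 0.16 and 1.37 ± 0.17 (adjusted p = 2.8e-05 and 0.000201).

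Of the activating convertases, 3 of 4 were higher in YAP-M and in YMdIDR over SVZ libraries and none was called in NSC-YAP libraries at this threshold. Furin, which activates MMP14 and many ADAMTS proteases, was higher by 1.92 ± 0.12 in YAP-M and 2.57 ± 0.13 in YMdIDR libraries (adjusted p = 1.34e-07 and 2.38e-08), and had 0.87 ± 0.13 in NSC-YAP libraries (adjusted p = 0.000146), with an effect under the fold threshold. Of the membrane ADAM proteases, relatives of ADAMTS that shed cell-surface proteins, 6 of 8 tested were higher and none lower in YAP-M over SVZ libraries, led by Adam8 (4.09 ± 0.38), Adam10 (1.15 ± 0.12) and Adam9 (1.67 ± 0.21; adjusted p = 2.12e-06, 7.26e-06 and 2.31e-05). Of the ADAMTS-like proteins, which lack a protease domain, 4 of 7 were higher and 1 lower in YAP-M over SVZ libraries, with Adamtsl3 higher (4.54 ± 0.35, adjusted p = 5.87e-07) and Adamtsl2 lower (-1.35 ± 0.17, adjusted p = 1.93e-05). Among inhibitors and cofactors outside the TIMP family, 1 of 5 was higher in YAP-M over SVZ libraries, A2m, the general protease inhibitor alpha-2-macroglobulin (3.20 ± 0.56, adjusted p = 0.000271), and 4 of 5 were higher in NSC-YAP over SVZ libraries, led by Bsg, an inducer of MMP production (1.41 ± 0.09, adjusted p = 3.43e-07).

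Of 12 matrix substrates, 9 were higher and 2 lower in YAP-M over SVZ libraries, with a median of 2.18, and 8 higher and 2 lower in YMdIDR over SVZ libraries, with a median of 2.01. Fn1, fibronectin, was higher by 5.28 ± 0.22 and Bgn, the small proteoglycan biglycan, by 4.23 ± 0.21 in YAP-M libraries (adjusted p = 1.23e-08 and 2.89e-08). Bcan, the brain proteoglycan brevican that ADAMTS4 and ADAMTS5 cut, was lower (-2.88 ± 0.26, adjusted p = 2.1e-06). In NSC-YAP over SVZ libraries 4 of the 12 were higher and 5 lower, beside 17.5% and 27.6% of all genes. In YAP-M over YMdIDR libraries 3 were higher and 1 lower. The lower gene was Bgn (-1.35 ± 0.17, adjusted p = 0.0002), and Col2a1, cartilage collagen, was higher (2.91 ± 0.50, adjusted p = 0.00112).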

How the data were processed

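RNA was measured in 12 libraries of 4 groups, with groups and replicate numbers taken from the sample titles. The other 5 samples of the series, which measure binding to DNA, were not analysed here. The deposited values are raw counts, 1 library to a table. Alignment used TopHat2 and mm10, per the submitters' processing notes. How the reads were counted (program, strand, multiple hits, annotation) was not given in the sources used here, so paralogs and overlapping genes may share reads.

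Lines of 1 symbol were summed, which turned 53090 lines into 52850 symbols. CPM used library totals (20784130 to 25463303 counts, which set the precision) multiplied by TMM factors (0.826 to 1.13). The 18329 genes that reached 1 CPM in 2 or more libraries were tested with edgeR 4.0.16 (R 4.3.3), quasi-likelihood, with all 12 libraries in 1 fit of 4 group coefficients and no block, and Benjamini-Hochberg adjustment over these genes. A value after ± is the standard error of a log2 fold change. A group at 0 counts was set to a floor of 3 counts over the group, and with 1 to 3 counts an exact 95% counting interval is given. The test was tried on simulated data first.

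Replicates differed by a chi-square per gene of 3.94 to 82.1, more than sampling noise, so each library counted as 1 sample. The members and lists were chosen with earlier results of these data known. Named members reached a mean of 5 CPM in a group or were TIMP genes (33 members), with fold changes given mainly where called, and other lists name up to 3 genes by smallest adjusted p. Some genes of these lists are not reported here. Alternatives were no filter, a 5 CPM filter, median-ratio scaling, quantile normalization (limma 3.58.1), a replicate block, a fit of the compared groups alone, calls by adjusted p, DESeq2 1.42.0, and each library left out in turn. Plots came from Python 3.11.15 and matplotlib 3.10.9.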

Additional observations from a re-analysis of the deposited data

Results flagged for a closer look

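Among 33 members checked in the 4 YAP-M libraries, 3 had a library whose gap to its nearest neighbour took a larger share of the group's range than the 95% critical value of Dixon's test for 4 samples. Chance flags about 1 group in 20. Adamts5 was low in YAP-M replicate 3 (ratio 0.87), with 310.1 CPM there and 617, 594 and 577 CPM in replicates 1, 2 and 4. Mmp9 was high in YAP-M replicate 3 (ratio 0.831), with 16.2 CPM there and 3.53, 5.67 and 4.3 CPM in replicates 1, 2 and 4. Mmp13 was high in YAP-M replicate 4 (ratio 0.856), with 8.46 CPM there and 1.21, 1.67 and 2.26 CPM in replicates 1, 2 and 3.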

How the results depend on the processing

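Of 150 results for single members, 113 kept their direction and their call under each alternative that was run. DESeq2, median-ratio scaling and a filter of at least 5 CPM changed none of those they could fit. Calls by the adjusted p alone used the same fit without the fold threshold, so they could not turn a sign or lose a call. The signs that turned were Mmp23 in NSC-YAP over SVZ (0.89) and Adamts3 in YMdIDR over NSC-YAP (-0.11) under quantile normalization, and Timp2 in YAP-M over YMdIDR (-0.10) without YMdIDR replicate 3, where the values with 1 library left out reached 0.34. The cause was not tested. By the adjusted p alone, 7967 genes in place of 3003 were called in YAP-M over YMdIDR. At least 5 CPM, which tests fewer genes, left 5 members in place of 8 lower in YMdIDR over NSC-YAP. A fit of the compared groups alone left 5 members in place of 9 higher in YAP-M over YMdIDR, and quantile normalization left 7 in place of 14 lower in NSC-YAP over SVZ.

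With 1 library left out, members called higher numbered 18 to 20 and lower 9 to 10 in YAP-M over SVZ, 17 to 19 and 9 to 10 in YMdIDR over SVZ, 8 to 9 and 12 to 14 in NSC-YAP over SVZ, 17 to 18 and 7 to 8 in YAP-M over NSC-YAP, 15 to 17 and 6 to 10 in YMdIDR over NSC-YAP, and 4 to 9 and 4 to 6 in YAP-M over YMdIDR. All genes called in YAP-M over YMdIDR numbered 2475 to 3793. Of 15 pairs of libraries with the same replicate number, 4 deviated together with a correlation over 0.1 (range -0.0968 to 0.386). The highest value among pairs with different numbers was 0.259, for YAP-M replicate 4 and YMdIDR replicate 1. These values do not settle whether equal numbers mark a shared animal, culture or batch, and the main fit used no block. With the replicate number as a block, members called numbered 18 higher and 10 lower in YAP-M over SVZ and 8 higher and 6 lower in YAP-M over YMdIDR, and 7 member calls were lost. Members at a few counts in SVZ or NSC-YAP libraries are limited by depth, and folds against 0 counts are bounds.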

Other observations

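The transcript A730049H05Rik, which lies within Adamts9 on the opposite strand and was chosen after its values were seen, averaged 52.4 CPM in YAP-M, 10.9 CPM in YMdIDR, 0.0815 CPM in NSC-YAP and 0.0463 CPM in SVZ libraries. Adamts9 itself averaged 160.3 CPM in YAP-M, 188.5 CPM in YMdIDR, 68.3 CPM in NSC-YAP and 6.09 CPM in SVZ libraries. Yap1 itself varied most among the YMdIDR libraries, from 183.5 CPM in replicate 1 to 838 and 1274 CPM in replicates 2 and 3.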
